A study of Mus musculus with 6 samples.

Results

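The genes described here are 40 named components of Wnt signalling among the 48397 gene symbols counted: the receptors that take up Wnt ligands, the secreted proteins that keep ligands from them, and the transcription factors and feedback genes downstream. They were chosen by symbol, and all 40 were present in the count tables. They comprise 10 Frizzled receptors, 5 co-receptors and other receptors, 5 R-spondin receptors and the ligases those receptors act on, 4 nuclear effectors, 7 feedback and target genes and 9 secreted antagonists. Their transcripts were measured by bulk RNA sequencing in 3 libraries labelled 5E1 and 3 labelled IgG. Both groups were sorted live EGFP+ cells from lungs of PdgfraEGFP/+ mouse pups at postnatal day 8. EGFP marks cells in which Pdgfra, a growth factor receptor gene of lung fibroblasts and their precursors, is active, and both groups carried it on 1 allele. For the 5E1 group the dams had been injected intraperitoneally at E18.5, late in gestation, with 5E1, an antibody that binds hedgehog ligands and blocks their signal, and for the IgG group with control IgG. The antibody was given to the dam and was not restricted to the lung or to the sorted cells.

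Wnt ligands bind a Frizzled receptor together with Lrp5 or Lrp6, which stabilises β-catenin, and β-catenin then joins factors of the TCF/LEF family on target genes. Some of those targets, such as Axin2, Nkd1 and Notum, turn the signal down again, while R-spondins and their Lgr receptors raise it by removing the ligases that clear Frizzled receptors from the membrane. In the developing lung, Wnt and hedgehog signals both act on the mesenchyme that gives rise to fibroblasts, myofibroblasts and smooth muscle.

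Promoter sequence was read from RefSeq (GRCm38.p6), which gave a window of 250 bases before to 50 after a start site for 27 of the 40 genes. The TCF/LEF letters CTTTGNN, where each N was A or T, searched on both strands with overlaps allowed, occurred in windows of 6 of these genes: Fzd7, Sp5, Lef1, Tnfrsf19, Dkk1 and Tcf7l2. In Lef1, Tnfrsf19 and Tcf7l2 the match is in a further window and not in the first. Counted by window, 6 of the members' 34 hold such a match. Of all 32851 windows in the table, 16.9% hold one, and of the 14245 windows of genes tested here, 12.0%. The letters GACCACCCA, a core bound by the hedgehog effectors of the GLI family, occurred in none of the members' 34 windows and in 0.253% of all windows. The 250 bases before the start are shown for 3 genes, 5′ to 3′ on the gene's strand, with TCF/LEF matches in capitals. Lgr6 is the R-spondin receptor with the largest difference between the groups and holds no match, Fzd7 is the only Frizzled gene with one among those that have a window, and Sp5, a target gene with few reads in these cells, has a match at 222 and another at 104 bases before its start. They lie on GRCm38.p6 at chr1:135105277-135105526 (minus strand) for Lgr6, chr1:59481897-59482146 (plus strand) for Fzd7 and chr2:70474673-70474922 (plus strand) for Sp5.
Lgr6: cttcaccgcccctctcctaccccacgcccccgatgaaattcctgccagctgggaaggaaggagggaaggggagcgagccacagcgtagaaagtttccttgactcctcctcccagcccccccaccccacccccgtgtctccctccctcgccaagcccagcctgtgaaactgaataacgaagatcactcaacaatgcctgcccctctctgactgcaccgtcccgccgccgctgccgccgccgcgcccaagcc
Fzd7: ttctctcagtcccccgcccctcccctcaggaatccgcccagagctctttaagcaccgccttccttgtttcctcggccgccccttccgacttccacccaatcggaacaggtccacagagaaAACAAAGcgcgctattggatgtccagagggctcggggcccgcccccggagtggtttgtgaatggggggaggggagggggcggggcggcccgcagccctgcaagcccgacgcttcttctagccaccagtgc
Sp5: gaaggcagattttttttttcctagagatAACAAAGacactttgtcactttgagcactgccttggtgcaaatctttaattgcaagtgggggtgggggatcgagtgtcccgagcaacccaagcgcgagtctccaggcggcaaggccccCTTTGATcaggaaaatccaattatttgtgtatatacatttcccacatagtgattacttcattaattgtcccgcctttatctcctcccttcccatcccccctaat

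The Fzd7 match lies 130 bases before the RefSeq start and reads AACAAAG on the strand shown, the reverse complement of CTTTGTT. GENCODE M21, which gave the gene positions below, starts Fzd7 farther downstream, at 59482424, so the match lies farther from that start. The upstream sequences of Lgr6 and Fzd7 are both 65.2% G or C, against 46.0% for Sp5. A match is a description of the letters alone, and no binding was measured.

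Gene counts summed to between 18857199 and 34318583 in the 5E1 libraries and between 16958433 and 28405457 in the IgG libraries. The hedgehog target Ptch1 had 86.3, 82.1 and 102 CPM (reads scaled to a common library size by the TMM method) in the 5E1 libraries, against 412, 415 and 405 CPM in the IgG libraries. Gli1 averaged 57.5 ± 11.9 CPM in 5E1 and 125 ± 14.8 CPM in IgG cells, and Hhip 101 ± 18.4 CPM in 5E1 and 521 ± 75.8 CPM in IgG cells (SD, n = 3 each, as in all means below). All 3 genes were lower in 5E1 cells in edgeR's quasi-likelihood test (adjusted p 4.12e-06, 0.00109 and 1.84e-05). Pdgfra itself, the sorted gene, was at 645 ± 73.3 CPM in 5E1 and 502 ± 77.5 CPM in IgG cells, a log2 difference of 0.36 that missed the threshold (edgeR adjusted p 0.0742). It passed with a term for Y-linked reads (0.0307) or no low-count filter (0.0118) in edgeR, and in DESeq2 (0.0300). Markers of several cell types differed between the groups. Each list below is named by its most abundant marker, called or not, and genes counted as higher or lower are those called. Of the leading markers, Tgfbi, Mki67, Pdgfrb and Ager were themselves called and the others were not. Of all genes tested, 23.2% were called. The 7 myofibroblast markers, led by Tgfbi, summed to 4329 to 5492 CPM in 5E1 and 9691 to 11087 CPM in IgG libraries, with 7 of 7 lower. These markers include Hhip, given above with Ptch1 and Gli1, so the list is not separate from those hedgehog genes. The 6 proliferation markers, led by Mki67, summed to 101 to 217 CPM in 5E1 and 403 to 443 CPM in IgG libraries, with 5 lower. The 8 adventitial fibroblast markers, led by Col14a1, summed to 4333 to 6437 CPM in 5E1 and 2861 to 4352 CPM in IgG libraries, with 5 higher. The 7 alveolar fibroblast markers, led by Npnt, summed to 3297 to 4157 CPM in 5E1 and 2366 to 3036 CPM in IgG libraries, with 3 higher. This list includes Pdgfra, the sorted gene given above, and so is not separate from it. The 8 leukocyte markers, led by Lyz2, summed to 254 to 409 CPM in 5E1 and 113 to 129.7 CPM in IgG libraries, with 5 higher. Epithelial, endothelial and mesothelial sums were highest in 5E1 replicate 2. Type 2 epithelial markers summed to 207 to 500.2 CPM in 5E1 and 194.6 to 216 CPM in IgG libraries, type 1 markers to 39.3 to 76.8 CPM in 5E1 and 30.9 to 36.4 CPM in IgG, and airway markers to 282 to 1108 CPM in 5E1 and 265 to 562 CPM in IgG. Endothelial markers summed to 92.9 to 277 CPM in 5E1 and 102 to 134 CPM in IgG libraries, and mesothelial markers to 34.8 to 102 CPM in 5E1 and 10.6 to 40.1 CPM in IgG. Called higher were 2 of 7 type 2, 2 of 5 type 1 and 1 of 4 mesothelial markers and none of the airway (led by Scgb1a1) and endothelial (led by Cdh5) markers, the others being led by Sftpc, Ager and Msln. The 6 pericyte markers, led by Pdgfrb, summed to 592 to 623 CPM in 5E1 and 443 to 513 CPM in IgG libraries, with 1 higher and 1 lower. No marker was at 0 in all libraries, and the part of these cell types in the results below was not tested. In bulk samples, fewer cells of a type and less RNA per cell cannot be told apart. Reads of Y-linked genes were nearly absent in 5E1 replicate 1 and IgG replicate 3 and at 195 to 209 CPM in the other 4 libraries. Xist, a transcript of female cells, was at 1510 CPM in 5E1 replicate 1 and 1039 CPM in IgG replicate 3. In the 4 libraries with Y-linked reads it was still at 175 to 460 CPM, so these held transcripts of both sexes.

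Of the 40 genes, 37 passed the low-count filter, and of these 7 were higher in 5E1 cells, 4 were lower and 26 did not pass the test. The higher genes were the Frizzled receptors Fzd4, Fzd5, Fzd6 and Fzd7, the co-receptor Lrp5, the extracellular Wnt deacylase Notum and the secreted antagonist Sfrp1. The lower genes were the R-spondin receptor Lgr6, the transcription factor Tcf7 and the feedback genes Nkd1 and Apcdd1. Calls were made at an adjusted p under 0.05 in edgeR's quasi-likelihood test over all 16198 genes tested, of which 23.2% were called, 12.1% higher and 11.1% lower. The members' share of 29.7% (11 of 37) stands close to that background. Their median log2 fold change was 0.19, against 0.00 over all genes tested. The CPM values of the 2 groups did not overlap for 18 of the 37, 9 with 5E1 above and 9 below, where 42.2% of all genes tested did not overlap, 20.8% above and 21.4% below. With scaling by library size alone, which moved the median of all genes to -0.14, 5 members were higher and 8 lower, and over all genes 1312 were higher and 3274 lower, against 1966 and 1791 with TMM. Over all genes, the count called higher was 1221 without IgG replicate 2, and the count called lower 1073 to 1145 without IgG replicate 1, 2 or 3 or 5E1 replicate 3.

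**Figure D1:**
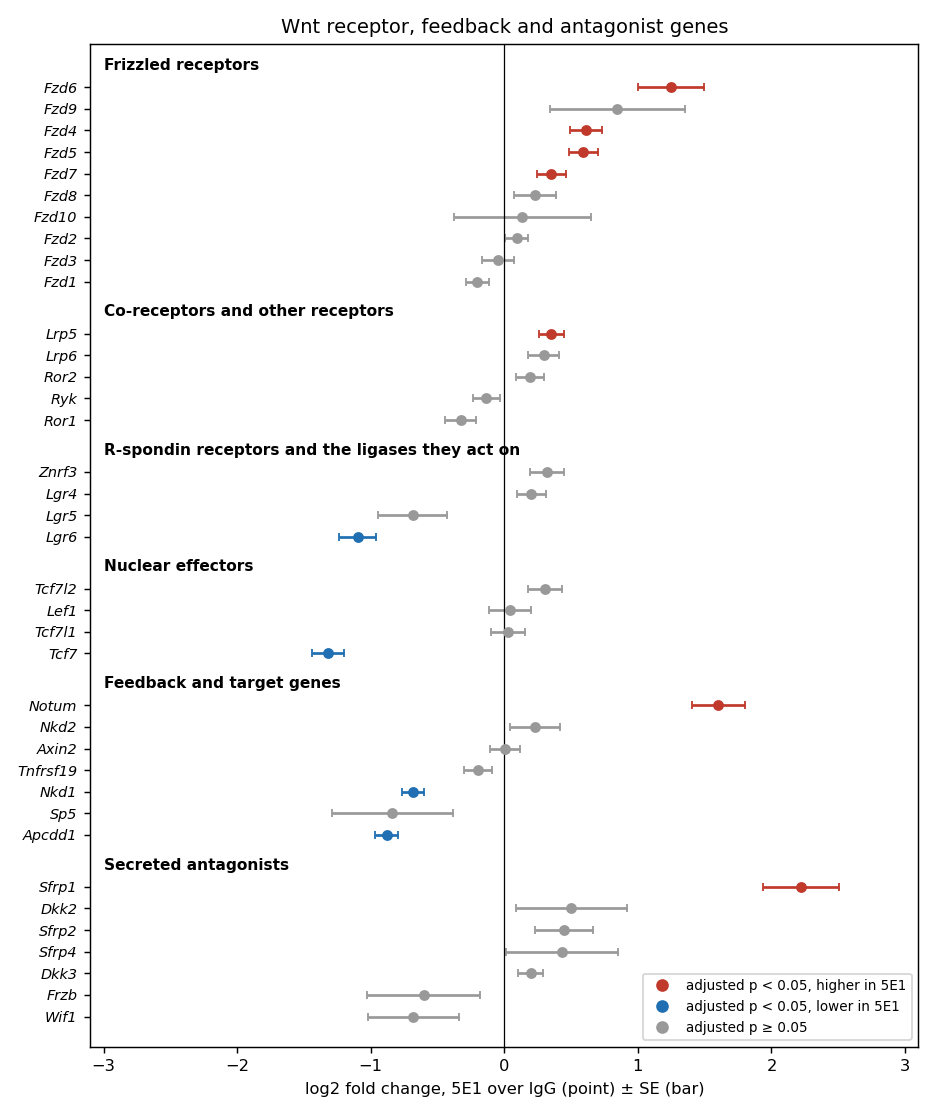
Log2 fold change of 5E1 over IgG (x axis; points, with bars of 1 SE) for the 37 tested genes, grouped by role down the page; red points passed the test as higher and blue points as lower in 5E1 cells, grey points did not pass. Sfrp1 at 2.22 and Notum at 1.60 lie farthest to the right, and Tcf7 at -1.32 and Lgr6 at -1.10 farthest to the left.

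The plot of fold changes by role shows that no role but the Frizzled receptors had more than 1 gene called higher. That rests on the roles as assigned, with the extracellular enzyme Notum among the feedback genes and not beside the antagonist Sfrp1. Called and uncalled genes stand side by side in every role. The Frizzled list is also the longest, with 10 genes, and 12.1% of all genes tested were called higher. In either direction, 40% of the 10 Frizzled receptors and 42.9% of the 7 feedback and target genes were called. Of all genes tested, 23.2% were called in either direction. Among the secreted antagonists, all but Sfrp1 lie within 1 log2 unit of 0.

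The Frizzled receptors, the multi-pass membrane proteins that bind Wnt ligands, had 4 of 10 genes higher in 5E1 cells and none lower, with a median log2 fold change of 0.29. Fzd4 (chr7:89404355-89413134), which also binds the ligand norrin, had 127, 153 and 168 CPM in the 5E1 libraries, against 107, 85.5 and 100.4 CPM in the IgG libraries. Every 5E1 library lay above every IgG library, with a log2 difference of 0.61 (SE 0.12, edgeR adjusted p 0.00459). Fzd5 (chr1:64730558-64737751) had 24.8, 23.2 and 24.1 CPM in 5E1 and 15.5, 17.1 and 15.2 CPM in IgG libraries. Its groups were tight and well apart, with a log2 difference of 0.59 (SE 0.11, edgeR adjusted p 0.00348). Fzd6 (chr15:39006034-39038188), a receptor known for its part in the planar polarity of hair follicles, was low in both groups, at 7.72, 10.03 and 8.65 CPM in 5E1 and 4.19, 4.59 and 2.43 CPM in IgG libraries. It had the largest relative difference of the family, 2.38-fold higher in 5E1 cells (log2 1.25, SE 0.24, edgeR adjusted p 0.00481). Fzd7 (chr1:59482424-59486955), whose promoter letters are given above, had 114, 126 and 131 CPM in 5E1 and 93.5, 85.3 and 112 CPM in IgG libraries. Its highest IgG library, replicate 3, came close to the lowest 5E1 library, and the log2 difference was 0.35 (SE 0.11, edgeR adjusted p 0.0364). That call ended without IgG replicate 1 (adjusted p 0.124) or 2 (0.142), without 5E1 replicate 2 (0.0633) or 3 (0.122), and with scaling by library size alone (0.175).

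The other 6 Frizzled genes did not pass the test. Fzd1, the Frizzled gene with the highest level per length, was at 170.0, 186 and 189 CPM in 5E1 and 203, 221 and 204 CPM in IgG libraries, a log2 difference of -0.20 (95% interval -0.39 to -0.01, edgeR adjusted p 0.116) with every 5E1 library below every IgG library. It passed the test with scaling by library size alone, at -0.35 (adjusted p 0.0132). Fzd2 was at 90.9 ± 7.92 CPM in 5E1 and 85.2 ± 2.60 CPM in IgG cells, and the interval of its log2 difference ran from -0.10 to 0.28. Fzd3, which acts in axon guidance and planar polarity, was nearly identical in all libraries, at 12.6 to 13.0 CPM in 5E1 and 13.0 to 13.5 CPM in IgG. Fzd8 was at 23.6 to 30.6 CPM in 5E1 and 19.6 to 29.4 CPM in IgG libraries, with overlapping groups. Fzd9 and Fzd10 were near the limit of detection. Fzd9 was at 0.834 to 1.44 CPM in 5E1 and 0.28 to 0.908 CPM in IgG libraries, with a wide interval of -0.26 to 1.95, and Fzd10 at 0.489 to 1.14 CPM in 5E1 and 0.443 to 0.980 CPM in IgG libraries, with an interval of -0.99 to 1.26.

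Of the co-receptors and other receptors, Lrp5 alone passed the test, as higher in 5E1 cells. Lrp5 (chr19:3584828-3686564), the partner of Frizzled receptors in the β-catenin branch, had 133, 138 and 165 CPM in 5E1 and 115, 113 and 114 CPM in IgG libraries. The IgG libraries were almost identical and the 5E1 libraries were spread above them, with 5E1 replicate 3 the highest (log2 0.35, SE 0.09, edgeR adjusted p 0.0221). The call ended without any 1 of the IgG replicates (adjusted p 0.0717 to 0.0747), without 5E1 replicate 3 (0.0892) and with scaling by library size alone (0.103). Its paralogue Lrp6 had 202, 199 and 254 CPM in 5E1 and 186, 187 and 162 CPM in IgG libraries, again without overlap, but missed the threshold (log2 0.29, SE 0.11, edgeR adjusted p 0.0835). It passed without 5E1 replicate 2 (0.0490) and with no low-count filter (0.0391).

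Ror1 and Ror2 are receptor tyrosine kinase family proteins that bind Wnt5a outside the β-catenin branch, and their differences had opposite signs. Ror1 had 93.6, 74.2 and 93.4 CPM in 5E1 and 103, 125 and 99.8 CPM in IgG libraries, with every 5E1 library below (log2 -0.33, SE 0.12, edgeR adjusted p 0.0650). It passed the test with no low-count filter (0.00535) and with scaling by library size alone (0.00785). Ror2 was at 52.1 ± 5.42 CPM in 5E1 and 45.6 ± 4.47 CPM in IgG cells, with overlapping groups and an interval of -0.04 to 0.42. Ryk, a Wnt receptor with an inactive kinase domain, was at 229.7 to 255 CPM in 5E1 and 242 to 297 CPM in IgG libraries, also with overlap.

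Among the R-spondin receptors and the ligases they act on, the receptor Lgr6 was lower in 5E1 cells and no other gene passed the test. Lgr6 (chr1:134983301-135105276) had 79.2, 65.7 and 80.7 CPM in 5E1, against 152, 196 and 135 CPM in IgG libraries. The highest 5E1 library lay well below the lowest IgG library, and the gene was 2.14-fold lower (log2 -1.10, SE 0.14, edgeR adjusted p 0.000629), a call that held in all 15 alternatives. Lgr5, its paralogue known as a stem cell marker of the intestine, was scarce, at 2.72, 3.93 and 4.75 CPM in 5E1 and 7.87, 5.43 and 5.12 CPM in IgG libraries. Every 5E1 library of Lgr5 was below every IgG library, but the difference missed the threshold (log2 -0.68, SE 0.26, edgeR adjusted p 0.0795). It passed with scaling by library size alone (0.0261) and with no low-count filter (0.0266). Lgr4, the paralogue with the broadest expression in mouse tissues, was at 26.2 ± 1.66 CPM in 5E1 and 22.8 ± 1.77 CPM in IgG cells (log2 0.20, interval -0.04 to 0.44).

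Znrf3 and Rnf43 encode membrane ubiquitin ligases that remove Frizzled receptors, and R-spondins bound to an Lgr receptor take those ligases away. Znrf3 had 31.8, 30.2 and 40.1 CPM in 5E1 and 26.4, 25.03 and 30.3 CPM in IgG libraries. The groups just overlapped (log2 0.32, SE 0.13, edgeR adjusted p 0.0944), and the gene passed without 5E1 replicate 2 (0.0440). Rnf43 was hardly detected, with 1, 4 and 18 reads in 5E1 and 15, 3 and 4 reads in IgG libraries, and did not pass the low-count filter.

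Of the 4 TCF/LEF genes, Tcf7 was lower in 5E1 cells and the other 3 did not pass the test. Tcf7 (chr11:52252371-52283014), which encodes TCF1, had 49.8, 55.8 and 40.1 CPM in 5E1, against 115, 132 and 116 CPM in IgG libraries. The lowest IgG library held more than the highest 5E1 library by a wide margin, and Tcf7 was 2.49-fold lower (log2 -1.32, SE 0.12, edgeR adjusted p 9.77e-05), the smallest adjusted p among the members. Tcf7l1, which acts mostly as a repressor of Wnt targets, was at 60.8 ± 10.03 CPM in 5E1 and 59.5 ± 5.86 CPM in IgG cells, with an interval of -0.25 to 0.30. Lef1 was at 17.0 ± 2.45 CPM in 5E1 and 16.6 ± 2.88 CPM in IgG cells, with an interval of -0.31 to 0.39. The fitted differences of both genes changed sign under some alternatives. Tcf7l2 had 37.7, 32.2 and 44.5 CPM in 5E1 and 29.4, 29.3 and 33.7 CPM in IgG libraries, with overlapping groups (log2 0.31, SE 0.12, edgeR adjusted p 0.102), and passed without 5E1 replicate 2 (0.0212).

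The feedback and target genes moved in both directions: Notum was higher, Nkd1 and Apcdd1 were lower, and Axin2, the most widely used readout of the β-catenin branch, stood at the same mean level in both groups. Axin2, a scaffold of the complex that degrades β-catenin, had 71.3, 92.1 and 73.3 CPM in 5E1 and 70.7, 80.5 and 85.0 CPM in IgG libraries. The libraries were interleaved, with a log2 difference of 0.00 and a 95% interval of -0.24 to 0.25. Differences within that interval are not excluded by these libraries. Nkd1 (chr8:88521354-88594884), which binds Dishevelled and dampens the signal, had 73.2, 65.8 and 71.4 CPM in 5E1, against 112, 116 and 109 CPM in IgG libraries. Both groups were tight, and the gene was 1.61-fold lower (log2 -0.68, SE 0.08, edgeR adjusted p 0.000282). Its paralogue Nkd2 was at 15.3, 18.9 and 20.3 CPM in 5E1 and 15.9, 11.3 and 19.1 CPM in IgG libraries, with overlap (log2 0.23, SE 0.19). Apcdd1 (chr18:62922231-62961179), a membrane protein that inhibits Wnt reception, had 54.7, 52.8 and 55.6 CPM in 5E1, against 89.4, 103 and 108 CPM in IgG libraries. The 5E1 libraries were almost identical and all below the IgG libraries, 1.84-fold lower (log2 -0.88, SE 0.09, edgeR adjusted p 0.000135).

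Notum (chr11:120653788-120661175), an enzyme that inactivates Wnt ligands by taking off their lipid, had 37.8, 66.0 and 41.5 CPM in 5E1, against 16.2, 15.7 and 16.1 CPM in IgG libraries. The IgG libraries were nearly identical, while 5E1 replicate 2 stood above the other 5E1 libraries. Notum was 3.04-fold higher in 5E1 cells (log2 1.60, SE 0.20, edgeR adjusted p 0.000946), and the log2 fold change was 1.31 without 5E1 replicate 2, the library with the highest epithelial, endothelial and mesothelial marker sums. Of its 2408 exon bases in GENCODE M21, 918 overlap the opposite-strand genes Notumos and Myadml2os, and the strand setting of the counting is not given in the sources used here. Notumos had 23, 187 and 56 reads in the 5E1 and 24, 11 and 39 reads in the IgG libraries, against 5236 Notum reads over all 6. Exons of Fzd5, Fzd6, Lef1, Axin2, Tcf7l1 and Sfrp2 also share bases with an opposite-strand gene, which had 8 to 115 reads in all.

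Sp5, a zinc finger factor whose upstream sequence above holds both TCF/LEF matches, was near the limit of detection, at 1.03, 0.625 and 0.6995 CPM in 5E1 and 1.02, 0.952 and 2.14 CPM in IgG libraries. IgG replicate 3 alone was high, the groups overlapped, and the interval of the log2 difference ran from -1.84 to 0.16. Tnfrsf19, a receptor of the tumour necrosis factor family and a Wnt target, was abundant, at 374, 320.3 and 326 CPM in 5E1 and 373, 429 and 369 CPM in IgG libraries. Its groups overlapped through 5E1 replicate 1 (log2 -0.20, interval -0.43 to 0.03), and it passed with scaling by library size alone (-0.34, edgeR adjusted p 0.0369).

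**Figure D2:**
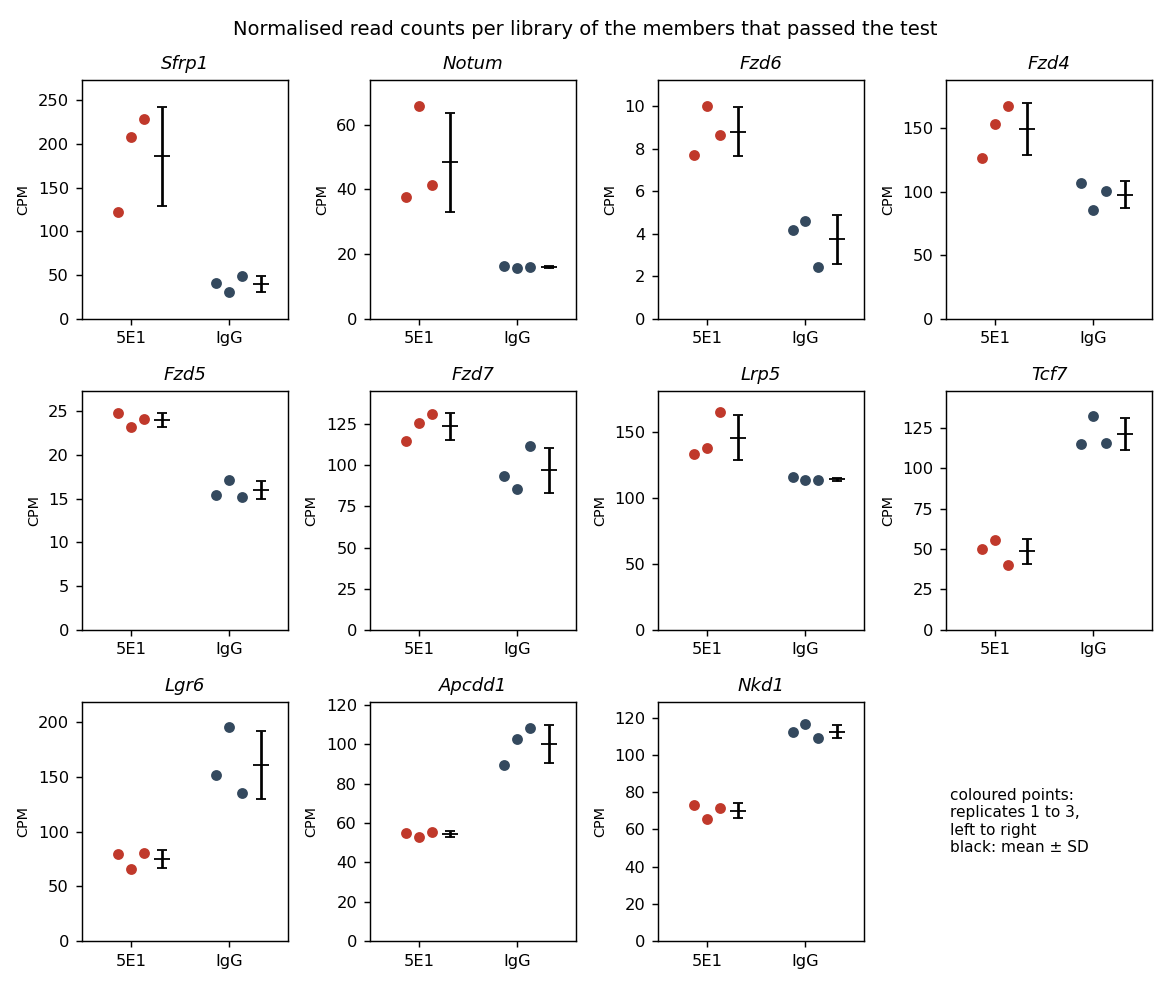
CPM in each library (y axis, from 0) for the 11 genes that passed the test, 7 higher and then 4 lower in 5E1 cells; red points are 5E1 and dark points IgG replicates, 1 to 3 from left to right, and black marks are the mean with a bar of 1 SD. In each panel the 5E1 and IgG points do not overlap. Sfrp1 has the largest 5E1 SD of the 11 at 56.6 CPM, and the Notum IgG points lie almost on each other, with an SD of 15.3 CPM in 5E1 and 0.264 CPM in IgG.

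The panels of values by library show 2 kinds of separation. In Fzd5, Nkd1 and Apcdd1 the replicates lie close together and the groups far apart for their spread, whereas in Notum the IgG libraries lie close together and the 5E1 libraries are widely spread above them. In Sfrp1 both groups are spread, with SDs of 56.6 CPM on a mean of 186 CPM in 5E1 and 9.34 CPM on a mean of 39.8 CPM in IgG cells.

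Of the secreted antagonists, Sfrp1 was higher in 5E1 cells and the other 6 tested did not pass. Sfrp1 (chr8:23411502-23449632), a secreted relative of the Frizzled receptors that binds Wnt ligands, had 122, 208 and 228 CPM in 5E1, against 40.6, 30.1 and 48.8 CPM in IgG libraries. The lowest 5E1 library, replicate 1, still held more than every IgG library, and the gene was 4.66-fold higher (log2 2.22, SE 0.29, edgeR adjusted p 0.00333), the largest difference among the members. The call held in all alternatives: the log2 fold change stayed between 2.05 and 2.45, with adjusted p no higher than 0.0246. Sfrp2, a paralogue of Sfrp1, was at 10.8, 8.04 and 11.7 CPM in 5E1 and 6.68, 5.88 and 9.62 CPM in IgG libraries, with overlap (log2 0.45, SE 0.22, edgeR adjusted p 0.163). Sfrp4 was at 9.35, 3.19 and 10.01 CPM in 5E1 and 7.29, 4.59 and 4.61 CPM in IgG libraries. 5E1 replicate 2 was the lowest of all 6, and without it Sfrp4 passed the test (log2 0.81, edgeR adjusted p 0.0264).

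Wif1, which binds Wnt ligands directly, had 28.8, 11.7 and 27.9 CPM in 5E1 and 42.0, 33.8 and 33.0 CPM in IgG libraries. Every 5E1 library was below every IgG library, but 5E1 replicate 2 lay far under the others and the difference did not pass (log2 -0.68, SE 0.34, edgeR adjusted p 0.208). Dkk3, a divergent Dickkopf protein whose effect on Wnt signalling varies between cell types, was the most abundant member, at 721, 744 and 766 CPM in 5E1 and 658, 659 and 628 CPM in IgG libraries. Its groups did not overlap, yet the log2 difference of 0.20 (interval -0.01 to 0.41) did not pass (edgeR adjusted p 0.154). Dkk2, at 0.924 to 1.84 CPM in 5E1 and 0.616 to 1.19 CPM in IgG libraries, was scarce and overlapped between the groups. So was Frzb, the secreted Frizzled-related protein also called sFRP3, at 0.774 to 1.77 CPM in 5E1 and 1.125 to 2.25 CPM in IgG libraries. Dkk1, the classical inhibitor of Lrp6, had 2, 0 and 2 reads in 5E1 and 0, 0 and 2 reads in IgG libraries. Sfrp5 had 7, 0 and 8 reads in 5E1 and 10, 0 and 12 reads in IgG libraries, and neither gene passed the low-count filter.

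To compare genes with each other, CPM was divided by the length of each gene's annotated exons in kilobases, which gives a level in FPKM. Dkk3 was first of the 40 in both groups, at 221 ± 6.67 FPKM in 5E1 and 193 ± 5.27 FPKM in IgG cells, followed in both by Tnfrsf19 (71.8 ± 6.24 FPKM in 5E1, 82.3 ± 7.05 in IgG), Ryk (52.9 ± 2.88 in 5E1, 58.1 ± 6.42 in IgG) and Fzd1 (43.3 ± 2.45 in 5E1, 49.8 ± 2.44 in IgG). The places below them differed between the groups. Sfrp1 was 5th in 5E1 cells at 42.6 ± 12.9 FPKM, a level within the spread of Fzd1, and 18th in IgG cells at 9.11 ± 2.14 FPKM. Tcf7 was 10th in 5E1 cells at 18.498 ± 3.03 FPKM and 5th in IgG cells at 46.1 ± 3.70 FPKM, next below Fzd1. Lgr6 was 18th in 5E1 cells at 11.0 ± 1.20 FPKM and 7th in IgG cells at 23.5 ± 4.58 FPKM. Notum was 9th in 5E1 cells at 20.1 ± 6.36 FPKM and 20th in IgG cells at 6.64 ± 0.110 FPKM. Sfrp5, Rnf43 and Dkk1 were the lowest in both groups.

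**Figure D3:**
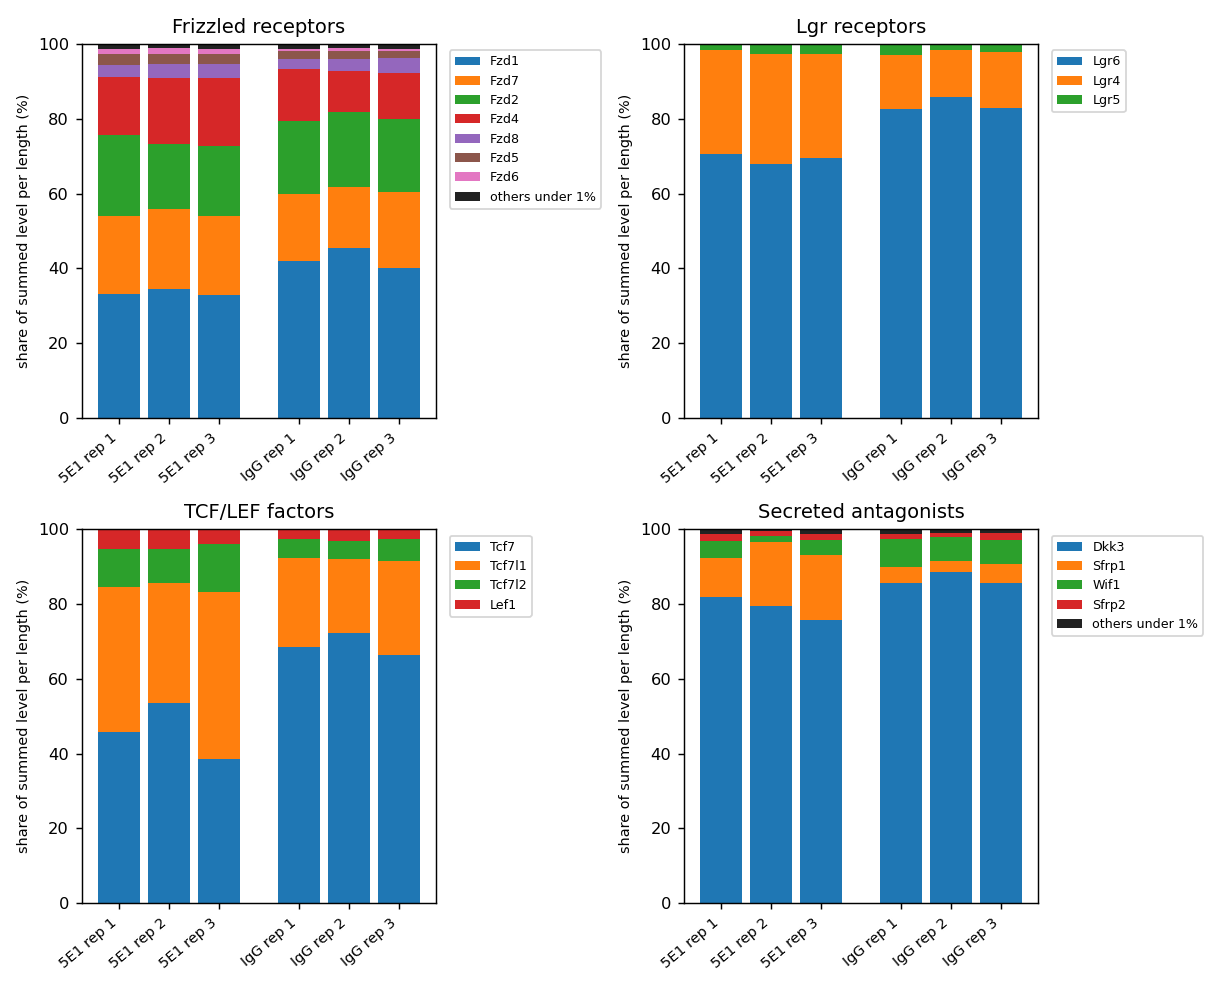
Share of each family's summed level per length held by each gene (y axis, percent) in every library, the 3 5E1 libraries left of the 3 IgG libraries, for the Frizzled receptors, the Lgr receptors, the TCF/LEF factors and the secreted antagonists; colours are genes and black is the sum of genes under 1%. Tcf7 holds 45.9% of the TCF/LEF level in 5E1 and 69.1% in IgG cells, and Sfrp1 holds 15.02% of the antagonist level in 5E1 and 4.10% in IgG cells.

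The plot of family shares sets these levels side by side within each family, as a description without a test. The Frizzled receptors summed to 129 ± 7.47 FPKM in 5E1 and 117 ± 3.43 FPKM in IgG cells. Fzd1 held 33.5 ± 0.750% of that sum in 5E1 and 42.5 ± 2.75% in IgG cells, and Fzd7 held 21.1 ± 0.377% in 5E1 and 18.2 ± 2.04% in IgG cells. Fzd2 held 19.3 ± 2.28% in 5E1 and 19.8 ± 0.283% in IgG cells, and Fzd4 17.1 ± 1.45% in 5E1 and 12.4 ± 1.41% in IgG cells. The same 4 genes led the family in every library. The Lgr receptors summed to 15.8 ± 1.48 FPKM in 5E1 and 28.0 ± 4.85 FPKM in IgG cells, of which Lgr6 held 69.4 ± 1.37% in 5E1 and 83.8 ± 1.81% in IgG cells, and Lgr4 28.2 ± 0.942% in 5E1 and 14.0 ± 1.32% in IgG cells. The TCF/LEF factors summed to 40.3 ± 0.985 FPKM in 5E1 and 66.7 ± 2.90 FPKM in IgG cells. Tcf7 held 45.9 ± 7.56% of it in 5E1 and 69.1 ± 2.96% in IgG cells, and Tcf7l1 38.5 ± 6.34% in 5E1 and 22.8 ± 2.81% in IgG cells. In 5E1 replicate 3 Tcf7l1, at 44.7%, exceeded Tcf7, at 38.4%. Without division by length, Tcf7 held 29.7% of the family's reads in 5E1 and 53.1% in IgG cells. The secreted antagonists summed to 281 ± 19.2 FPKM in 5E1 and 223 ± 5.27 FPKM in IgG cells, with Dkk3 holding 79.0 ± 3.01% in 5E1 and 86.6 ± 1.61% in IgG cells. Sfrp1 held 15.02 ± 3.82% in 5E1 and 4.10 ± 1.002% in IgG cells, and Wif1 3.36 ± 1.46% in 5E1 and 6.69 ± 0.758% in IgG cells.

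The members act on ligands and through partners outside the 40, and of 78 other Wnt pathway genes 64 were tested. In 5E1 cells 8 of these were higher and 12 lower, with a median log2 fold change of -0.10, and 23 were lower with scaling by library size alone. The share called with TMM was 31.25%, near the 23.2% of all genes tested (12.1% higher and 11.1% lower). The ligands and R-spondins had 2 of 13 tested higher and 6 lower, or 61.5% called in a short list. Rspo1, an R-spondin and so a ligand of Lgr4, Lgr5 and Lgr6, was at 11.0 ± 1.85 CPM in 5E1 and 2.24 ± 0.397 CPM in IgG cells (log2 2.30, edgeR adjusted p 9.77e-05). Rspo2, its relative, was at 6.70 ± 1.74 CPM in 5E1 and 19.7 ± 4.56 CPM in IgG cells (log2 -1.55, edgeR adjusted p 0.000890). The ligand genes showed both directions as well. Wnt2b was at 21.0 ± 5.22 CPM in 5E1 and 6.96 ± 2.77 CPM in IgG cells (log2 1.58, edgeR adjusted p 0.00587). Wnt11 was at 73.5 ± 12.9 CPM in 5E1 and 216 ± 12.4 CPM in IgG cells (log2 -1.56, adjusted p 3.30e-05) and Wnt5a, the ligand of the Ror receptors, was lower too (log2 -1.43, edgeR adjusted p 0.000135).

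**Figure D4:**
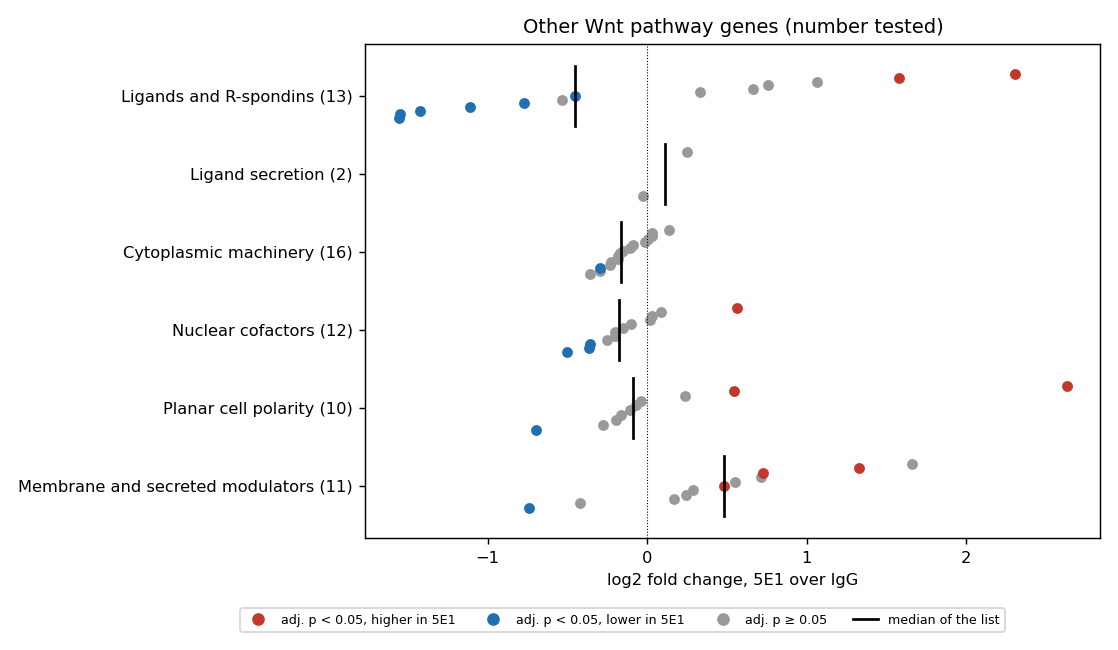
Log2 fold change of 5E1 over IgG (x axis) for the 64 other Wnt pathway genes tested, in 6 lists down the page with the number tested in brackets; each point is a gene, red where higher and blue where lower in 5E1 cells past the test, grey where not, and black lines are list medians. The ligands and R-spondins run from Wnt11 at -1.56 to Rspo1 at 2.30, and the cytoplasmic machinery has a median of -0.16.

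The plot of the other pathway genes shows the cytoplasmic machinery, among it the degradation complex in which Axin2 acts, with a median of -0.16 and 1 of 16 genes called, as lower. The fold changes of 12 of the 16 were below 0, and 8 were called lower with scaling by library size alone and 2 with DESeq2 or with no low-count filter. The called gene, the casein kinase Csnk1a1, was lower by a log2 fold change of -0.29 (edgeR adjusted p 0.0412), a call that ended without any 1 library but 5E1 replicate 2 (0.0779 to 0.127). Neither of the 2 genes of ligand secretion was called. In the 3 lists that follow, 33.3% of nuclear cofactors, 30% of planar polarity genes and 36.4% of other modulators were called. Over all genes tested the share was 23.2%. Among 12 nuclear cofactors of the pathway, the corepressor Tle1 was higher, at 46.0 ± 1.01 CPM in 5E1 and 31.1 ± 1.63 CPM in IgG cells (log2 0.56, edgeR adjusted p 0.00125). Its relatives Tle4 and Tle3 were lower (log2 -0.50 and -0.36, edgeR adjusted p 0.00678 and 0.0111), as was the coactivator Pygo1 (-0.37, 0.0186), whose call ended without IgG replicate 2 (0.0769) or 5E1 replicate 3 (0.0649). Of 10 planar polarity genes, Daam1 was higher (log2 0.54, edgeR adjusted p 0.00109), Vangl2 lower (-0.70, 0.00175), and the very scarce Celsr3 higher (2.63, 0.00958), at 0.911 ± 0.168 CPM in 5E1 and 0.134 ± 0.0939 CPM in IgG cells. Of 11 other membrane and secreted modulators tested, 3 were higher and 1 lower. Lrp4, a relative of Lrp5 and Lrp6, was at 430.2 ± 37.6 CPM in 5E1 and 172 ± 11.4 CPM in IgG cells (log2 1.32, edgeR adjusted p 3.04e-05). Shisa3 (log2 0.48) and Tmem198 (0.72) were higher and Shisa2 (-0.74) lower at edgeR adjusted p 0.0308 to 0.0384, and each of these 3 calls ended without at least 3 of the 6 libraries in turn: Shisa3 without IgG replicate 1 or 2 or 5E1 replicate 1 or 3, Tmem198 without any but 5E1 replicate 2, and Shisa2 without IgG replicate 3 or 5E1 replicate 1 or 2. Shisa3 (edgeR adjusted p 0.0868) and Tmem198 (0.0869) also lost their calls with scaling by library size alone, and Tmem198 with no low-count filter (0.0586) and the term for Y-linked reads (0.0510).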

How the data were processed

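Each library has 1 deposited table of unnormalised read counts, with 48397 gene symbols and 5 HTSeq summary lines that took 36.4% to 54.7% of its reads and were left out. The submitters' processing notes name build mm10 and the tools R 3.5.1, DESeq2 1.10.0, STAR 2.5.0c, HTSeq 0.6.0, Picard 1.126 and bedtools 2.17.0 without their roles. RNA was made into stranded poly(A) libraries, per the labels' protocols. The sources used here do not give the annotation, strand setting or duplicate handling. Whether a group's 3 libraries came from separate pups, litters or pools is not stated, so p-values measure the spread between these samples only, which may be technical. Replicate pairs differed by more than sampling noise (chi-square over degrees of freedom 14.8 to 50.5). Sample numbers in the titles run by group, so order of handling, if they give it, and antibody cannot be told apart.

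Genes were kept with filterByExpr (minimum count 10, minimum total 15), scaled by TMM and tested, two-sided, with edgeR 4.0.16's quasi-likelihood test (robust, group only) in R 4.3.3, with Benjamini-Hochberg adjustment over all 16198 genes tested. Intervals are 95% and unadjusted. CPM and FPKM use TMM-scaled library sizes, and FPKM the union of GENCODE M21 exons, which also gave positions (GRCm38, equal to mm10). The fit was tested on simulated data. Alternatives were DESeq2 1.42.0, limma-voom 3.58.1, RLE factors, scaling by library size alone, no robust estimation, no filter, a filter at 5 CPM in 3 libraries, a replicate block, a term for Y-linked reads and each library left out. The members and all lists were chosen with earlier results of these data known. All members are named, with up to 3 called genes per direction with the smallest p of each other list, the leading marker of each marker list, Ptch1, Gli1, Hhip and Pdgfra.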

Additional observations from a re-analysis of the deposited data

How the results depend on the processing

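Of the 11 genes that passed the test, 9 (Fzd4, Fzd5, Fzd6, Lgr6, Tcf7, Nkd1, Notum, Apcdd1 and Sfrp1) kept their call and direction in all 15 alternatives, and Fzd7 and Lrp5 lost it in those named with their values, where the cause was not tested. Another 8 genes passed in at least 1 alternative. With library size alone, which moved the median of all genes to -0.14, 3274 genes were lower, 8 members were lower (1 Frizzled gene, Fzd1, 1 co-receptor, Ror1, 2 of the R-spondin group and, beside Tcf7, Nkd1 and Apcdd1, Tnfrsf19), 0 co-receptors were higher and 23 other pathway genes were lower. With no low-count filter, 2 co-receptors were higher and 1 lower, and 2 of the R-spondin group were lower. With 1 library left out, 1221 to 1885 genes were higher and 1073 to 1819 lower. Then 5 to 10 members were higher and 4 lower, among them 0 to 2 co-receptors, 0 to 1 of the R-spondin group, 0 to 1 TCF/LEF gene and 1 to 2 antagonists higher. Uncalled differences near 0 changed sign with library size alone: Fzd2 (-0.052), Fzd10 (-0.028), Tcf7l1 (-0.12), Lef1 (-0.10) and Axin2 (-0.14). So did Axin2 with no filter (-0.011) and with the replicate block (-0.00332). With 1 library left out, values ran from -0.32 to 0.51 for Fzd10, -0.087 to 0.15 for Tcf7l1, -0.052 to 0.18 for Lef1 and -0.12 to 0.070 for Axin2. Without division by length, family shares were 29.3% in 5E1 and 38.3% in IgG cells for Fzd1, 14.7% in 5E1 and 15.6% in IgG for Fzd2, 24.0% in 5E1 and 17.8% in IgG for Fzd4, 18.9% in 5E1 and 5.39% in IgG for Sfrp1, and 19.9% in 5E1 for Fzd7. Same-numbered 5E1 and IgG libraries had correlations of -0.14, -0.00758 and -0.07 in their deviations from group means, and so showed no likeness. Whether equal numbers mark a shared litter or batch cannot be told from these correlations. The replicate block gave 7 members higher and 4 lower, as without it, and 9 other pathway genes higher and 10 lower. Of the other pathway genes named, Csnk1a1 (edgeR adjusted p 0.0889) and Tmem198 (0.0680) were not called with the block. Counts near the filter limit what Fzd9, Fzd10, Sp5, Dkk2 and Frzb can show.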
